A study of Mus musculus with 8 samples.

Results

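The genes that make, package, sense and clear dopamine and serotonin were read in brain RNA of iron-loaded mice. They are 9 genes out of 16593 named genes on the array, chosen by name and not by their values, though with earlier results of these data known. Among them are the rate-limiting enzymes Th (dopamine and noradrenaline) and Tph2 (brain serotonin), and the shared decarboxylase Ddc. The others are the vesicular transporter Slc18a2, the dopamine transporter Slc6a3, the dopamine receptors Drd1 and Drd2, and the oxidases Maoa and Maob. The array carried 10 probes for the 9 genes, and 8 probes, 1 for each of 8 genes, passed the detection filter and entered the fit. Maoa did not pass it, and neither did the other Maob probe.

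Brain RNA, called whole brain in the series title and taken from brain hemispheres by the collection notes, came from 4 Hfe-/- x Tfr2mut mice and 4 wild-type mice, all male AKR mice aged 13 weeks, hybridised to 1 Illumina MouseRef-8 v2 BeadChip. The Hfe-/- x Tfr2mut mice, homozygous for the disruption of both iron regulatory genes, had eaten 2% carbonyl iron for 3 weeks before they were killed, whereas the wild-type mice stayed on chow of 0.02% iron. The effects of genotype and of diet cannot be told apart. The labels do not say how the mice were allocated to litters, and p-values measure the spread between these 8 arrays. Both lesions were constitutive, and the mutant group had no counterpart on the standard diet and the wild-type group none on the iron diet. Arrays are called mutant and wild-type by their labels, which the disrupted genes did not check: both Tfr2 probes were undetected in all 8 arrays, and the detected Hfe probe read 314 to 356 intensity units in mutant arrays, against 123 to 139.9 in wild-type arrays, its position relative to the disrupted part not being given in the sources used here. All directions below rest on those labels. Detected probes numbered 11188 to 11751 in mutant arrays and 11568 to 12192 in wild-type arrays, and the mean signal before normalization ran from 569.5 to 741 in mutant arrays and from 571 to 905 in wild-type arrays (the highest in wild-type array 1). The number of arrays, 4 in each group, limits the precision.

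As background, tyrosine hydroxylase (Th) and tryptophan hydroxylase (Tph2) each hold a non-haem iron atom and use tetrahydrobiopterin to add a hydroxyl group to their amino acid. Ddc then removes the carboxyl group, Slc18a2 loads the amine into vesicles, and after release the amine acts on receptors such as Drd1 and Drd2 before Slc6a3 returns dopamine to the terminal. Monoamine oxidases on the outer mitochondrial membrane break it down, Maob mainly in astrocytes and serotonin neurons. Th, Slc6a3 and Slc18a2 transcripts in brain come from small nuclei in the midbrain and hindbrain, with Th also made in the olfactory bulb and hypothalamus, while Drd1 and Drd2 mark different medium spiny neurons of the striatum. How much midbrain and hindbrain the hemispheres held is not stated, and in such a bulk sample fewer cells of a type and less RNA per cell cannot be told apart.

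Promoter sequences are shown for 4 of the genes: Th and Slc18a2, which had the highest correlation over the arrays of the pairs computed, Slc6a3, the other gene that defines dopamine terminals, and Tph2, which had the highest difference between the groups. RefSeq promoter windows (GRCm38.p6) of 300 bases, 250 before the annotated start and 50 from it onward, were found for 8 of the 9 genes, in 10 windows. The windows lie at chr7:142899946-142900245 on the minus strand (Th), chr19:59260628-59260927 on the plus strand (Slc18a2), chr13:73536497-73536796 on the plus strand (Slc6a3) and chr10:115184973-115185272 on the minus strand (Tph2). They are written 5′ to 3′ along the gene. The Slc6a3 window lies inside the gene span given below, which begins at 73536128, so it belongs to a later annotated start. Capitals mark the cAMP response element TGACGTCA in Th and Slc18a2, the GC box GGGCGG on either strand in Slc6a3, and the TATA box TATAAA in Tph2, and GC boxes in the other windows are left in lower case.
Th: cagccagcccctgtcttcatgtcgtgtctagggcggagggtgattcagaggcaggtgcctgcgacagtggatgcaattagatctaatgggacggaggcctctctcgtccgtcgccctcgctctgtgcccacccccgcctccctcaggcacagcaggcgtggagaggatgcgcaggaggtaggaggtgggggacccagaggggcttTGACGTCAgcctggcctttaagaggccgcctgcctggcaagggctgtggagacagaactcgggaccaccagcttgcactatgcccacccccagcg
Slc18a2: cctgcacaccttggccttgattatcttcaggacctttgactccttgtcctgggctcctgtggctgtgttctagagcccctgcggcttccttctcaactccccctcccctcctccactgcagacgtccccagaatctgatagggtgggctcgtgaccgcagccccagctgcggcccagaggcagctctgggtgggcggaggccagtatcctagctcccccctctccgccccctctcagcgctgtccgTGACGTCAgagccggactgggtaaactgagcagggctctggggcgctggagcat
Slc6a3: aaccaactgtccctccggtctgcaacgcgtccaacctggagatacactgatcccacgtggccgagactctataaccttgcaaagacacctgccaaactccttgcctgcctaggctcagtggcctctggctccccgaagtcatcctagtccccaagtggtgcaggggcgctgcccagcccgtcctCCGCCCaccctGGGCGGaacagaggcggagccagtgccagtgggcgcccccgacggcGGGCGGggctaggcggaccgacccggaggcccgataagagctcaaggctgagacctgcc
Tph2: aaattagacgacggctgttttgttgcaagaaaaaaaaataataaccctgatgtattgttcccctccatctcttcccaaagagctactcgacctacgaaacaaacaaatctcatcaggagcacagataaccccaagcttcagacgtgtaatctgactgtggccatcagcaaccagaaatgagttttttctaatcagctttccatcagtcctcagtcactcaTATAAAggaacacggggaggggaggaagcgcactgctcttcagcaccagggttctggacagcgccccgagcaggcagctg

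The motifs were searched on both strands, and none of them contains another. The palindrome TGACGTCA began 45 bases before the annotated start of Th and 4 bases before that of Slc18a2, where it spans the start, and was in 2 of the 10 windows, against 1.79% of 32851 RefSeq mouse windows of the same length. GGGCGG was in 7 of the 10 windows, those of Th, Slc18a2, Slc6a3, Drd1, Drd2 and Maoa (Drd1 with a pair of windows), against 35.7% of all windows. TATAAA was in the windows of Tph2, on the gene's own strand 30 bases before the start, and of Ddc, on the strand opposite to the gene, against 13.6% of all windows. The NR4A-binding motif AAAGGTCA was in the Ddc window alone of the 10, against 1.51% of all windows. These matches describe the letters in the windows and were not tested against the array values, though the Th, Slc18a2 and Tph2 windows were chosen for display by those values.

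None of the 8 fitted genes passed either threshold. By limma with Benjamini-Hochberg adjustment over 11204 probes, adjusted p of the 8 ran from 0.402 (Slc6a3) to 0.940 (Ddc), where 0.170% of all fitted probes passed at 0.05 (0.143% higher and 0.0268% lower). At the study's own cutoff of 0.05 without adjustment, 0 of 8 passed, against 12.7% of all fitted probes. Mutant and wild-type signals overlapped for all 8, whereas 7.85% of all fitted probes had no overlap. The difference, mutant minus wild-type on the log2 scale, was positive for Tph2 and Drd1 and negative for the other 6, with a median of -0.09, beside -0.0020 over all fitted probes. The largest in size was 0.24 for Tph2, and 19.3% of all fitted probes differed by more than that.

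**Figure D1:**
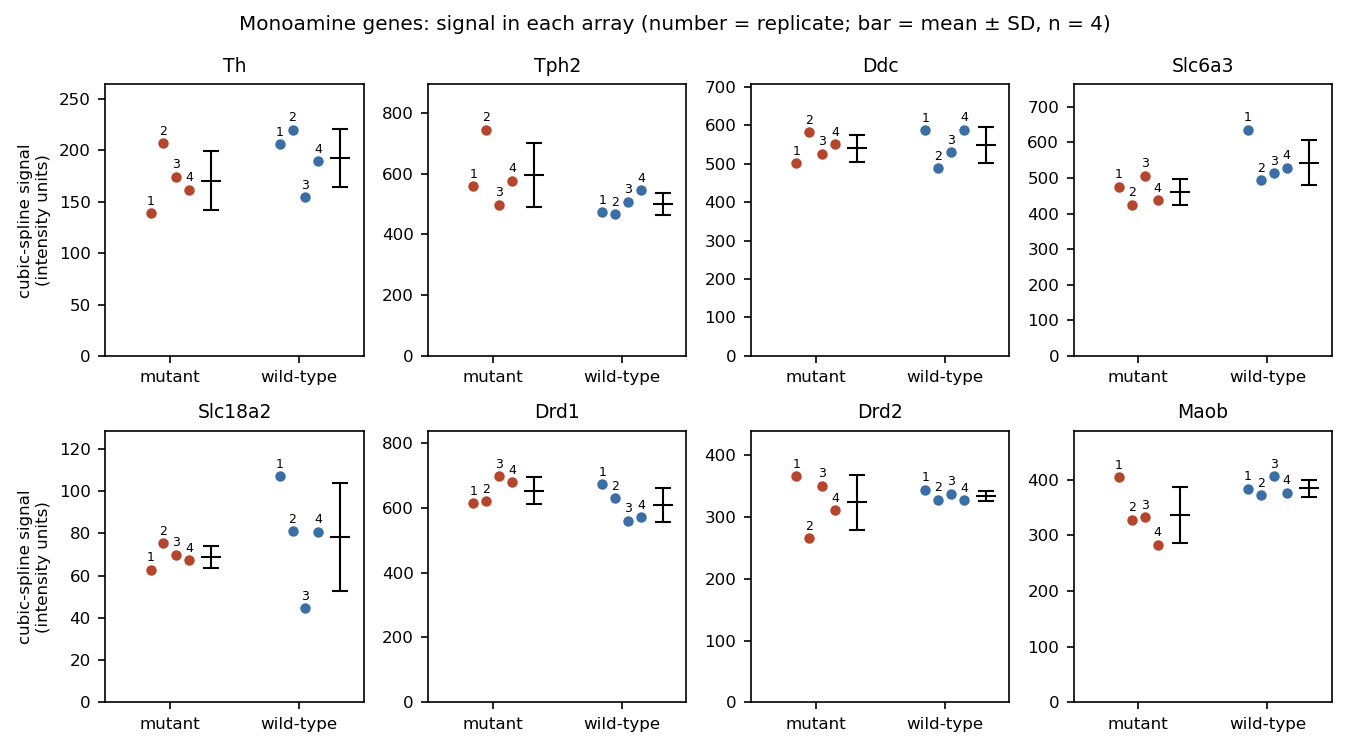
Cubic-spline signal (intensity units, vertical axis from 0) of the 8 fitted genes in 4 mutant arrays (left, red) and 4 wild-type arrays (right, blue), each point an array with its replicate number and the black bars the mean ± SD. The groups overlap in every panel, most closely for Ddc, and Slc18a2 has the widest wild-type spread, from 44.5 to 107.

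Th, which makes L-DOPA from tyrosine, lies on chromosome 7 (142892779 to 142899995, GRCm38.p6) and was read by probe ILMN_1222014. Its signal was 139, 207, 174 and 162 in mutant arrays 1 to 4, against 206, 220.1, 154 and 189 in wild-type arrays 1 to 4. Mutant array 1 was the lowest and wild-type array 2 the highest, and the groups overlapped over most of their range. The means were 171 ± 28.5 in mutant and 192 ± 28.3 in wild-type arrays (SD, n = 4 each), a log2 difference of -0.18 (SE 0.14, limma adjusted p = 0.617, exact permutation p = 0.314, two-sided). The 95% interval ran from 0.709 to 1.10 times the wild-type level. Those extreme arrays were also the ones with the most pituitary hormone signal (growth hormone Gh 14458 in mutant array 1 and 3611 in wild-type array 2, against 71.3 to 632 in the other mutant arrays and 38.0 to 521 in the other wild-type arrays), and with both left out the Th difference was -0.014 (SE 0.16). As these arrays held the lowest mutant and the highest wild-type Th signal, leaving them out moves the difference upward whatever their hormone signal. The part of pituitary tissue in this was not tested.

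Tph2, the enzyme of serotonin neurons in the raphe nuclei, lies on chromosome 10 (115078641 to 115185022) and was read by probe ILMN_2460179. It gave 558, 744, 498 and 577 in mutant arrays, against 474, 467, 508 and 547 in wild-type arrays. Mutant array 2 stood highest, 3 mutant arrays lay above every wild-type array, and mutant array 3 lay inside the wild-type range. The means were 594 ± 106 in mutant and 499 ± 36.5 in wild-type arrays (SD, n = 4 each), a log2 difference of 0.24 (SE 0.13, 95% interval -0.04 to 0.52, limma adjusted p = 0.453, exact permutation p = 0.0857). Without mutant array 3 the difference was 0.32 (unadjusted p = 0.0306, adjusted p = 0.376). Slc6a4, the serotonin transporter of the same neurons, read 102.6, 89.1, 93.1 and 114 in mutant arrays, against 102.2, 84.2, 122 and 104 in wild-type arrays, a log2 difference of -0.04 (SE 0.13).

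Ddc, the decarboxylase that serves both amines, lies on chromosome 11 (11814101 to 11898144) and was read by probe ILMN_2628647. It gave 500.5, 581, 526 and 549.9 in mutant arrays, against 586, 488, 530.5 and 588 in wild-type arrays. The ranges nearly coincided. Their log2 difference was -0.022 (SE 0.10, limma adjusted p = 0.940), and the 95% interval, -0.24 to 0.20, bounds the change at 0.847 to 1.15 times the wild-type level.

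Slc6a3, the dopamine transporter, came closest to a threshold. It lies on chromosome 13 (73536128 to 73578672), 49.8 Mb from Hfe, and was read by probe ILMN_2676852. The signal was 476, 425, 507 and 437 in mutant arrays, against 636, 494, 513 and 529 in wild-type arrays. All mutant arrays except array 3 lay below every wild-type array, and array 3 lay below 3 of the 4. The means were 461 ± 37.3 in mutant and 543 ± 63.4 in wild-type arrays (SD, n = 4 each), a log2 difference of -0.23 (SE 0.11, 95% interval -0.47 to 0.01, unadjusted p = 0.0556, limma adjusted p = 0.402, exact permutation p = 0.0571). In the average-normalized values the difference was -0.32 (unadjusted p = 0.0284, adjusted p = 0.258), on a scale where the median of all probes was -0.09. It was -0.28 without mutant array 3 and -0.28 without wild-type array 2, past the unadjusted threshold in both cases (adjusted p = 0.390 and 0.498).

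Slc18a2, which fills vesicles in all monoamine neurons, was the dimmest fitted gene. It lies on chromosome 19 (59260878 to 59296012), and probe ILMN_2739303 gave 62.7, 75.1, 69.9 and 67.1 in mutant arrays, against 107, 80.9, 44.5 and 80.7 in wild-type arrays. The mutant arrays lay close together inside the wild-type range. Wild-type array 3 was below detection, with a detection p-value of 0.0251, so Slc18a2 passed the detection filter through the mutant group alone. The log2 difference was -0.12 (SE 0.22, 95% interval -0.60 to 0.36, limma adjusted p = 0.835), the widest interval of the 8. It turned on single arrays: without wild-type array 3 it was -0.37 (unadjusted p = 0.0160, adjusted p = 0.224), and without wild-type array 1 it was 0.050.

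Drd1, the receptor that raises cAMP in neurons of the direct striatal pathway, lies on chromosome 13 (54051183 to 54055658), 30.3 Mb from Hfe, and was read by probe ILMN_2734062. It gave 614, 619, 697 and 678 in mutant arrays, against 673, 628, 560 and 570.3 in wild-type arrays. Mutant arrays 3 and 4 lay above every wild-type array, and the other mutant arrays inside the wild-type range. Drd1 differed by 0.10 on the log2 scale (SE 0.10, 95% interval -0.11 to 0.32, limma adjusted p = 0.665, exact permutation p = 0.257). With average-normalized values it was 0.0094.

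Drd2, the receptor that lowers cAMP and is also carried by dopamine neurons and by lactotrophs of the pituitary, lies on chromosome 9 (49340360 to 49408177) and was read by probe ILMN_2988228. It gave 366, 266, 350.4 and 311 in mutant arrays, against 344, 328, 338 and 327 in wild-type arrays. The wild-type arrays lay close together, and the mutant arrays spread to both sides of them, with array 1 highest and array 2 lowest. Mutant array 1 also had the highest prolactin signal (Prl 6930, against at most 177 in the other mutant arrays and at most 1841 in wild-type arrays). The value of 1841 was that of wild-type array 2, where Drd2 read 328, near the lowest wild-type value of 327. Any part of pituitary tissue in the Drd2 signals was not tested. Drd2 differed by -0.06 on the log2 scale (SE 0.11, 95% interval -0.30 to 0.19, limma adjusted p = 0.848), by 0.032 without mutant array 2, and by -0.13 without both arrays of highest hormone signal.

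Maob, the oxidase of astrocytes and serotonin neurons, lies on the X chromosome (16709281 to 16817366). Its detected probe, ILMN_2719069, gave 404, 328, 333 and 283 in mutant arrays, against 384, 372, 406 and 377 in wild-type arrays. All mutant arrays except array 1 lay below every wild-type array. The means were 337 ± 49.97 in mutant and 385 ± 15.3 in wild-type arrays (SD, n = 4 each), a log2 difference of -0.20 (SE 0.11, 95% interval -0.45 to 0.05, unadjusted p = 0.104, limma adjusted p = 0.477). The unadjusted p was 0.0205 without mutant array 1 (difference -0.29, adjusted p = 0.438), 0.0374 without both arrays of highest hormone signal (-0.31, adjusted p = 0.661), and 0.0233 in the average-normalized values (-0.31, adjusted p = 0.246). The other probe, ILMN_1258219, read -7.19 to 4.34 in mutant arrays and -8.22 to 2.72 in wild-type arrays and was undetected in all 8.

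Maoa, the oxidase that prefers serotonin and noradrenaline, lies beside Maob on the X chromosome (16619698 to 16687812). Its single probe, ILMN_2737954, gave -14.2, -11.1, -14.3 and -9.20 in mutant arrays, against -15.4, -11.4, -9.36 and -10.9 in wild-type arrays, with detection p of 0.743 or more throughout. No fold is given, and the lowest signals called detected on these arrays were 57.0 to 69.4 in mutant and 49.6 to 61.0 in wild-type arrays.

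**Figure D2:**
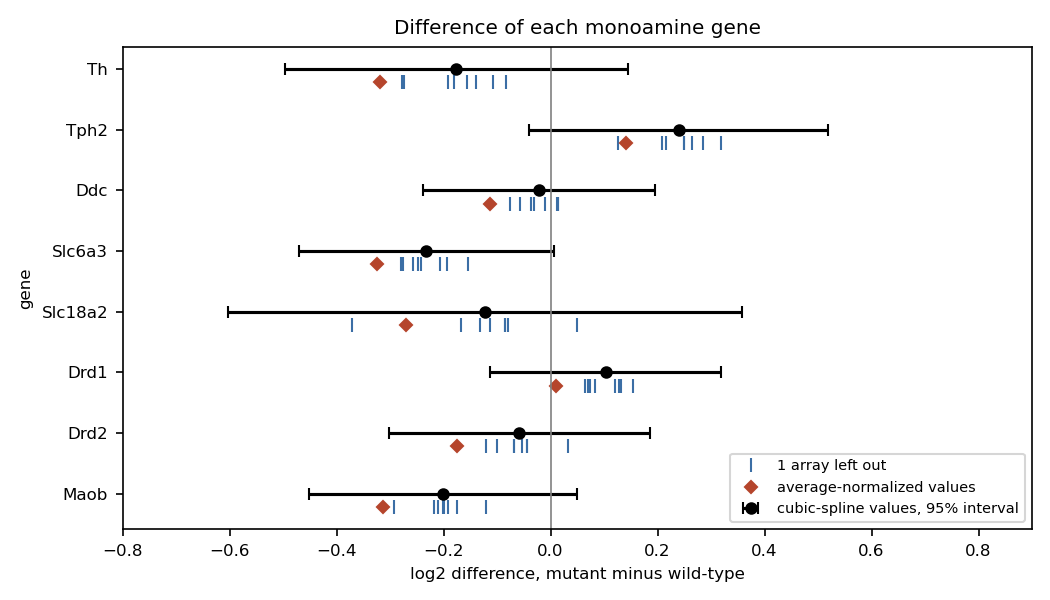
Log2 difference, mutant minus wild-type, of the 8 fitted genes (points, with limma 95% intervals), with the values when 1 array was left out (blue ticks) and with average-normalized values (red diamonds). All 8 intervals include 0, from 0.22 to either side for Drd1 to 0.48 for Slc18a2, and the diamonds lie left of the points, on a scale whose median over all probes is -0.09.

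Over the 8 arrays, the highest correlation of the 9 pairs computed was that of Th and Slc18a2, with Pearson's r = 0.72 (exact permutation p = 0.0334, adjusted over the 9 pairs 0.301) and Spearman's rho = 0.857 (exact permutation p = 0.0107, adjusted 0.0964). Without the 2 arrays farthest from the median of Th, r was 0.83, and after subtracting each group's mean it was 0.72. Leaving out the 2 arrays farthest on the first gene moved some other pairs further, Th and Ddc from r = 0.33 to 0.83 and Slc6a3 and Slc18a2 from 0.44 to 0.011. The lowest Slc18a2 value was below detection, and the pair fails the adjustment. Th and Slc6a3 had r = 0.23 (exact permutation p = 0.590, adjusted 0.672, rho = 0.02), Slc6a3 and Slc18a2 r = 0.44 (p = 0.257, adjusted 0.621, exact permutation), and Drd1 and Drd2 r = 0.07 (p = 0.893, adjusted 0.893, exact permutation). All arrays share 1 chip and 1 normalization.

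**Figure D3:**
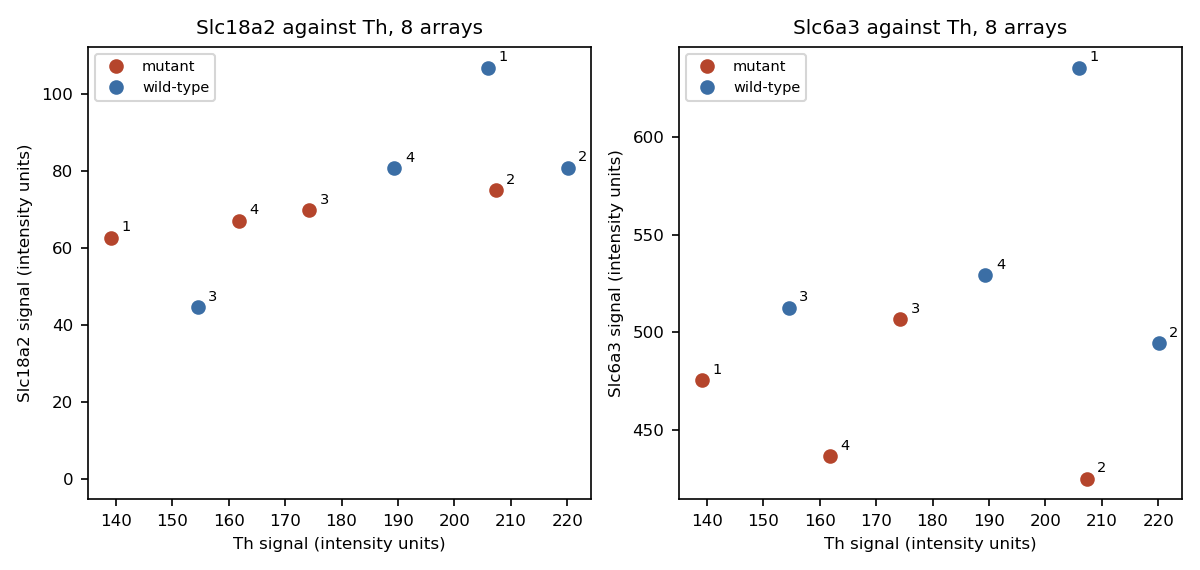
Signal of Slc18a2 (left panel) and Slc6a3 (right panel, axis not from 0) against that of Th, in intensity units, for 4 mutant (red) and 4 wild-type arrays (blue) with replicate numbers. Slc18a2 and Th have r = 0.72, with the lowest Slc18a2 value (44.5, wild-type array 3) below detection, and Slc6a3 and Th have r = 0.23.

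Among 9993 named probes detected in all arrays, those most like each gene over the 8 arrays were the following. For Th they were C87436 (Pearson's r = 0.92), Vps54 and Bin1. For Tph2 they were Pcgf5 (0.96), Dipk1c and D630023F18Rik, and for Ddc Tomm70a (0.96), Trmt9b and Ift81. For Slc6a3 they were Osbpl2 (0.98), Ccdc47 and Tpcn1, and 117 probes had r over 0.9 with it, against 3 for Th. For Drd1 they were Ptma (0.97), Kcnu1 and Rps24, for Drd2 Igfbp4 (0.95), Vegfb and Pld3, and for Maob Tti1 (0.97), Khdrbs3 and Nos3. None of these is one of the 9 genes, and with 8 arrays such values describe these arrays only.

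Among the genes that supply tetrahydrobiopterin, the cofactor of Th and Tph2, several had higher signals in mutant arrays, at the unadjusted threshold only. Of 12 listed synthesis and cofactor genes on the array, 8 were fitted. At that unadjusted cutoff 3 of them were higher and 1 was lower, where 6.72% of all fitted probes were higher and 6.02% lower, and 0 passed the adjusted threshold. Differences were positive for 7 of 8, with a median of 0.22, beside -0.0020 over all probes. Without the 2 arrays of highest hormone signal 1 was higher and 0 lower.

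Gch1, GTP cyclohydrolase, starts the cofactor pathway. It gave 165, 177, 174 and 160 in mutant arrays, against 104, 111, 173 and 136 in wild-type arrays. Only wild-type array 3 reached the mutant range. Gch1 differed by 0.40 on the log2 scale (SE 0.15, unadjusted p = 0.0227, limma adjusted p = 0.335). Without wild-type array 1 it was 0.29 and without wild-type array 2 it was 0.33, both short of the unadjusted threshold, and a further Gch1 probe was undetected in all arrays.

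Pts, which makes the intermediate after Gch1, had no overlap between the groups. It gave 1528, 1365, 1445 and 1259 in mutant arrays, against 1196, 1199, 1228 and 979 in wild-type arrays. The log2 difference was 0.28 (SE 0.11, unadjusted p = 0.0226, limma adjusted p = 0.335), and it fell short of the unadjusted threshold without mutant array 1 (0.24), mutant array 3 (0.27) or wild-type array 4 (0.21). Pcbd1, which helps recycle the cofactor, gave 188, 158, 198 and 169 in mutant arrays, against 135, 187, 119 and 138 in wild-type arrays, a log2 difference of 0.32 (SE 0.14, unadjusted p = 0.0459, limma adjusted p = 0.384) that did not pass when any of 6 single arrays was left out (0.23 at the least). With average-normalized values none of these 3 passed the unadjusted threshold, with differences of 0.26 for Gch1, 0.23 for Pts and 0.17 for Pcbd1.

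The other fitted cofactor genes, named beyond the rule after their values were seen, did not pass. Gchfr, the feedback regulator of Gch1, differed by 0.28 (SE 0.17), Pcbd2 by 0.15 (SE 0.13), Spr, the last enzyme of the synthesis, by 0.12 (SE 0.16) and Qdpr, the dihydropteridine reductase, by 0.08 (SE 0.09), all on the log2 scale. Tph1, Dbh and Pnmt were undetected in all 8 arrays.

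Aldh1a1, an aldehyde dehydrogenase of midbrain dopamine neurons that also clears dopamine's aldehyde, was the 1 lower gene of the list. It gave 591, 584, 660 and 661 in mutant arrays, against 741, 703, 728 and 789.9 in wild-type arrays, without overlap. The log2 difference was -0.25 (SE 0.09, unadjusted p = 0.0196, limma adjusted p = 0.328), and -0.22 without mutant array 1 or wild-type array 4, short of the unadjusted threshold in both cases.

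**Figure D4:**
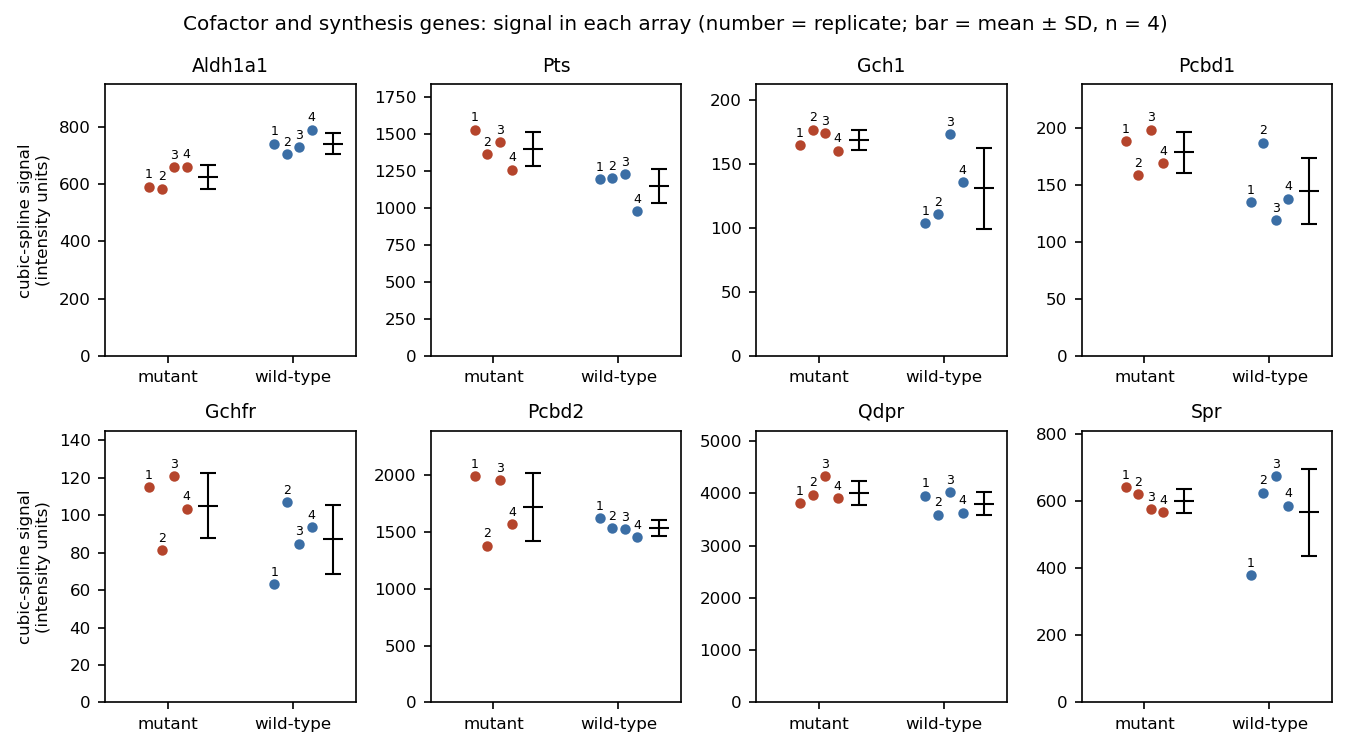
Cubic-spline signal (intensity units, from 0) of the 8 fitted synthesis and cofactor genes in 4 mutant arrays (left, red) and 4 wild-type arrays (right, blue), with replicate numbers and mean ± SD. Pts and Aldh1a1 show no overlap, in opposite directions, and in Gch1 1 wild-type array, at 173, lies in the mutant range.

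Further transport and breakdown genes gave 0 higher and 1 lower of 9 fitted at the unadjusted threshold (median -0.04), where 6.72% of all fitted probes were higher and 6.02% lower. With average-normalized values 2 were lower and the median was -0.20, where 1489 of all 11204 fitted probes were lower and their median was -0.09. The lower one was Slc29a4, the plasma membrane monoamine transporter, with 459, 624, 506 and 529 in mutant arrays, against 589, 655, 739 and 722 in wild-type arrays (log2 difference -0.36, SE 0.12, limma adjusted p = 0.297), and mutant array 2 alone lay inside the wild-type range. Without both arrays of highest hormone signal it was -0.30 and did not pass. Slc7a5, a carrier of large neutral amino acids, differed by -0.26 (SE 0.13), the fatty aldehyde dehydrogenase gene Aldh3a2 by -0.15 (SE 0.09) and the sulfotransferase gene Sult1a1 by -0.09 (SE 0.09), none of them past the threshold.

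Receptors and their signalling gave no call with cubic-spline values, where 12.7% of all fitted probes passed the unadjusted threshold. Of 20 further monoamine receptor genes on the array 5 were fitted, and 0 passed (median -0.0022). Serotonin receptors led the order, with Htr4 at 0.19 (SE 0.10), Htr1a at -0.10 (SE 0.12), Htr5b at 0.12 (SE 0.22) and Htr1d at -0.04 (SE 0.12). Htr5b was detected in 4 mutant and 3 wild-type arrays, and passed the detection filter through the mutant group alone. The dopamine receptors Drd3, Drd4 and Drd5 were undetected in all arrays. Of 25 fitted genes of dopamine signalling 0 passed (median -0.02). With average-normalized values 3 were lower, where 1489 of all 11204 fitted probes were lower. With neqc normalization 1 was lower, and without wild-type array 3 there were 4 lower and 1 higher. Rgs2, a G-protein regulator, had no overlap, with 162 to 169.6 in mutant arrays and 135 to 157 in wild-type arrays (0.17, SE 0.09, limma adjusted p = 0.433). Arrb1 (-0.29, SE 0.13), Gng7 (-0.23, SE 0.11) and Ncs1 (-0.28, SE 0.13) overlapped.

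Markers of the cells that carry these genes gave few calls, beside 6.72% of all fitted probes higher and 6.02% lower. With average-normalized values 356 of all 11204 fitted probes were higher and 1489 lower, with a median of -0.09. Striatal medium spiny neuron genes were 1 higher and 0 lower of 19 fitted (median -0.07), with 8 differences positive and 11 negative. The calls were 0 and 0 with average-normalized values, and 2 were lower without wild-type array 3. The higher one was the actinin gene Actn2 at 0.34 (SE 0.14, limma adjusted p = 0.359). Gng7 at -0.23 (SE 0.11), Isl1 at 0.20 (SE 0.10) and Ebf1 at 0.29 (SE 0.17) did not pass. Midbrain dopamine neuron genes were 0 higher and 1 lower of 10 fitted (median -0.06; 2 lower and a median of -0.20 with average-normalized values), the lower one being Aldh1a1, with Nr4a2 at 0.33 (SE 0.18), En2 at -0.26 (SE 0.15) and Ntsr1 at -0.22 (SE 0.12). The median of that list moved to -0.21 without mutant array 1 and to 0.0056 without mutant array 4. The other 10 genes, among them the defining factors Pitx3, Foxa2 and Lmx1a, were undetected in all 8 arrays. Serotonin neuron genes gave 0 of 6 fitted (median -0.07), with 2 differences positive and 4 negative. Gata2 was at -0.37 (SE 0.17), En2 at -0.26 (SE 0.15), Crhbp at 0.19 (SE 0.11) and Slc17a8 at 0.29 (SE 0.18). For noradrenaline neurons Dbh and Slc6a2 were undetected, and the fitted pair Cartpt (0.16, SE 0.11) and Gal (0.16, SE 0.17), which many other neurons make, did not pass.

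**Figure D5:**
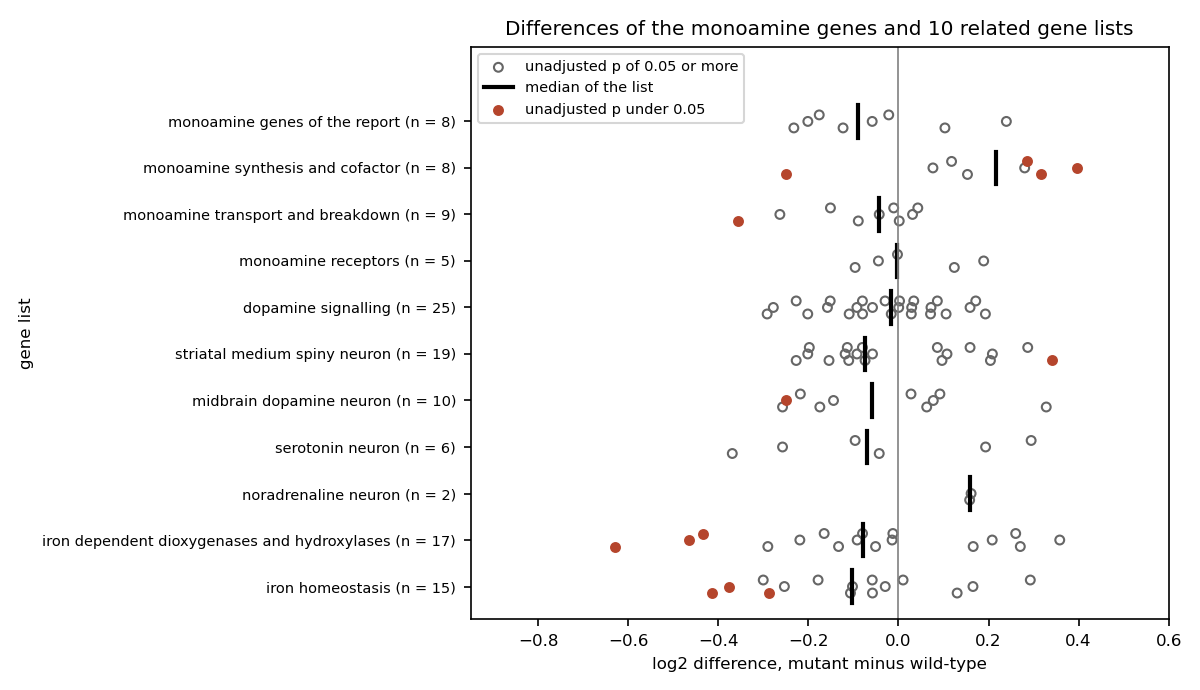
Log2 difference, mutant minus wild-type, of every fitted gene of the monoamine set and 10 related lists, filled where the unadjusted p was under 0.05, with each list's median as a black bar and the lowest point, Kdm4a, detected in 1 mutant array only. No monoamine gene is filled, the synthesis and cofactor list has the highest median (0.22), and 0 genes of any list passed the adjusted threshold.

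Iron-dependent enzymes and iron genes contained lower genes at the unadjusted threshold, at which 6.72% of all fitted probes were higher and 6.02% lower. With average-normalized values 356 of all 11204 fitted probes were higher and 1489 lower, with a median of -0.09. Of 17 fitted iron dioxygenases and hydroxylases, 0 were higher and 3 lower (median -0.08), and 6 were lower (median -0.19) with average-normalized values. Egln1, an oxygen-sensing prolyl hydroxylase, read 113 to 136 in mutant arrays, against 139.8 to 205 in wild-type arrays (-0.43, SE 0.13, limma adjusted p = 0.253). Fa2h, which hydroxylates myelin fatty acids, differed by -0.47 (SE 0.14). The third, the histone demethylase gene Kdm4a, was detected in 1 mutant array (59.7) and in all 4 wild-type arrays (58.7 to 69.3), and the other mutant arrays (37.0 to 38.0) lay below the lowest detected signal, so no fold is given. It passed the detection filter through the wild-type group alone. In a separate fit of only the probes detected in all 8 arrays, 1 of the 15 genes left was higher and 2 were lower. Kdm6b (0.36, SE 0.17) did not pass in the main fit. Of 15 fitted iron homeostasis genes, 0 were higher and 3 lower (median -0.10), and 4 were lower (median -0.17) with average-normalized values.

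Tfrc, the transferrin receptor whose mRNA is degraded when cell iron is high, gave 1204, 1222, 1282 and 1280 in mutant arrays, against 1700, 1669, 1384 and 1742 in wild-type arrays. All mutant arrays lay below all wild-type arrays, for this probe and for the further Tfrc probe. The log2 differences were -0.38 (SE 0.10, adjusted p = 0.215) and -0.41 (SE 0.10, adjusted p = 0.197, limma). Transferrin (Trf) differed by -0.41 (SE 0.10, limma adjusted p = 0.197), hephaestin (Heph) by -0.29 (SE 0.12) and ceruloplasmin (Cp), which did not pass, by -0.30 (SE 0.14).

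Regional and cell type markers moved with the groups in places. With the monoamine genes left out, 7 midbrain and hindbrain markers, 6 of them negative, summed to 6399 to 7672 units in mutant arrays and 7668 to 8977 in wild-type arrays. Nefm and Nefh, found in large axons throughout the brain, were most of that sum. Their means were 3984 and 1652 in mutant arrays, against 4547 and 2210 in wild-type arrays. Of the rest, Glra1 differed by -0.33 (SE 0.10), Chat by 0.27 (SE 0.14), Slc6a4 by -0.04 (SE 0.13) and Hoxb5 by -0.03 (SE 0.13). Hoxb2, detected in 3 of 4 mutant arrays, was also negative. The 8 striatal markers summed to 13044 to 15776 in mutant and 12595 to 15075 in wild-type arrays. The 12 astrocyte markers other than Maob summed to 56637 to 60640 in mutant and 56357 to 65658 in wild-type arrays (7 of 12 negative). Of 4 olfactory bulb markers other than Th, 2 were positive and 2 negative, and Gng13 was most of their sum. Cdhr1 differed by -0.40 (SE 0.28), Lhx1 by 0.37 (SE 0.25) and Gng13 by 0.25 (SE 0.11). Doc2g, the other negative one, was detected in 2 mutant arrays and in 4 wild-type arrays. It passed the detection filter through the wild-type group alone, so no fold is given. Oligodendrocyte markers (11 of 12 negative) summed to 86692 to 93155 in mutant and 94533 to 102250 in wild-type arrays, and endothelial and pericyte markers (6 of 6 negative) to 3017 to 4255 in mutant and 4457 to 4585 in wild-type arrays. Among the latter, Slco1a4 was detected in 1 mutant array and in 4 wild-type arrays, and passed the filter through the wild-type group alone. Hypothalamic markers were positive for 11 of 11 (25375 to 27454 in mutant and 23143 to 27219 in wild-type arrays), neuron markers negative for 9 of 10 (102470 to 105740 in mutant and 104760 to 115720 in wild-type arrays) and microglia markers positive for 8 of 9. Of the red blood cell markers Hba-a1 was higher at the unadjusted threshold, by 1.06 (SE 0.31), where 6.72% of all fitted probes were higher. Hbb-b2 read 133 to 368 in mutant and 51.2 to 168 in wild-type arrays. It was detected in 4 mutant and 3 wild-type arrays, and passed the filter through the mutant group alone, so no fold is given. Of the defining brain markers on the array, 13 of 13 astrocyte, 12 of 14 oligodendrocyte and 10 of 14 neuron genes were fitted. The part of any of these in the lower Slc6a3, Maob or Th signals was not tested.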

How the data were processed

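Total RNA of brain hemispheres from 8 mice was hybridised to 1 BeadChip. The authors subtracted background in GenomeStudio and deposited intensity values without normalization, after Average and after Cubic Spline normalization, with a detection p-value for each deposited intensity. Cubic-spline values under 10 were set to 10 and log2-transformed, and the fit took probes that every array of 1 group or the other detected at a p-value under 0.01, using limma 3.58.1 in R 4.3.3, 2 groups, no covariate, Benjamini-Hochberg adjustment over 11204 probes. The study names no test and applied no multiple-test correction. Of 25697 probes, 23978 had 1 symbol and 1719 none, 23962 named through Entrez identifier (RefSeq, GRCm38.p6). A gene was represented by its brightest detected probe. Exact permutation tests of single genes were two-sided, over 70 assignments of the arrays (smallest p 0.0286). A detection p compares a probe with the negative control beads of its array, so a dim probe has only a bound.

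The 9 genes, the 10 related lists and the lists of regional and cell type markers were chosen with earlier results of these data known, and list counts are descriptions, not tests. Genes named are all 9, up to 4 genes of lowest unadjusted p in each related list, and the 3 probes most correlated with each gene detected in all 8 arrays, with additions marked as such. Some lists overlap. The fit was tested on simulated data. Figures were drawn with matplotlib from the values printed by the fit. Alternatives were average-normalized values, quantile and neqc normalization of the values without normalization, other floors and detection filters, position on the chip, the replicate number as a block, leaving out each array, and, chosen after seeing the data, leaving out the 2 arrays with pituitary hormone signal.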

Additional observations from a re-analysis of the deposited data

Results flagged for a closer look

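Over the 43 genes examined in 2 groups of 4 arrays (86 groups), 6 had an array far from the other 3 by Dixon's ratio, where chance alone gives about 1 in 20 groups. None was one of the 9 monoamine genes. In wild-type array 4 the cofactor gene Pts read 979, against 1196 to 1228 in the other 3 wild-type arrays, on the side away from the mutant arrays. In wild-type array 1 the sulfotransferase gene Sult1a1 read 372, against 315 to 320.3 in the others. Mutant array 2 stood apart for the serotonin receptor gene Htr5b (75.6, against 112 to 115 in the other mutant arrays), the G-protein gene Gng7 (2900.5, against 2708 to 2738) and the homeobox gene En2 (1788, against 1175 to 1221). In mutant array 1 the demethylase gene Kdm4a read 59.7, against 37.0 to 38.0 in the other 3, in which it was undetected.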

How the results depend on the processing

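No monoamine gene passed the adjusted threshold under any alternative, the lowest adjusted p being 0.224 (Slc18a2 without wild-type array 3). Th and Drd1 kept direction and stayed short of the unadjusted threshold in all 19 alternatives, though Th ranged from -0.32 to -0.014. In the average-normalized table Slc6a3 (-0.32) and Maob (-0.31) passed the unadjusted threshold, so 2 monoamine genes did. The same table gave 356 probes higher and 1489 lower at the unadjusted threshold, against 753 and 674 in the cubic-spline table, 5 lower past the adjusted threshold, and 0 cofactor genes higher with a list median of 0.12. With no detection filter Slc6a3 passed (-0.23, adjusted p = 0.626 by limma), 1 monoamine gene in all, with 1 cofactor gene higher and 4 probes higher past the adjusted threshold. Adjusted lower calls were 3, becoming 5 with a floor of 30 or detection in at least 1 array and 0 with detection in all 8. Leaving out 1 array at a time gave 10 to 18 adjusted higher and 3 to 8 lower calls, 0 to 2 monoamine genes past the unadjusted threshold, and 1 to 5 cofactor genes higher (1 each without mutant arrays 1 and 3 and wild-type arrays 1 and 4, 5 without mutant array 2) and 0 to 1 lower.

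Leaving out 1 array turned 3 genes to the other sign. Ddc was 0.014 without mutant array 1, 0.012 without wild-type array 1 and 0.013 without wild-type array 4, in a range of -0.076 to 0.014. Drd2 was 0.032 without mutant array 2 (range -0.12 to 0.032), and Slc18a2 0.050 without wild-type array 1 (range -0.37 to 0.050). Maob ranged from -0.29 to -0.12, Slc6a3 from -0.28 to -0.15 and Tph2 from 0.13 to 0.32, with Slc6a3 past the unadjusted threshold without mutant array 3 or wild-type array 2. Leaving out both arrays with pituitary hormones gave 9 adjusted higher calls, 418 higher and 408 lower unadjusted calls, 1 monoamine gene (Maob, -0.31), and 1 cofactor gene higher and 0 lower. For single related genes and the other list counts and medians, 555 values were classed as unchanged. A gene difference was so classed when it kept its sign and its side of the unadjusted threshold. Counts and medians were so classed within a set margin, whatever the sign. The median of the monoamine receptors, for example, ran from -0.074 to 0.070 with 1 array left out. Of the rest, 25 gene differences fell short of the unadjusted threshold and 66 counts or medians moved. No difference of a single related gene changed sign. The cause of these changes was not tested, beyond the smaller number of arrays.

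Nothing in the labels pairs the replicate numbers beyond adjacent positions on the chip. Deviations of same-numbered arrays correlated at 0.10, -0.14, -0.35 and 0.10. With the replicate number as a block 0 monoamine genes passed (Slc6a3 -0.23, limma adjusted p = 0.528, and Tph2 0.24, limma adjusted p = 0.574), and the calls at the unadjusted threshold were 590 higher and 538 lower. Averaging a gene's detected probes was not run, since only 1 Maob probe was detected. Single probes, the low Slc18a2 signal and 4 arrays a group limit what could be seen: intervals of the 8 genes reached 0.22 to 0.48 on either side.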
